A study of Zea mays with 137 samples.

Results

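Expression of 2 maize genes of the endomembrane system was followed through 33 aneuploid combinations: Zm00004b032873, which encodes an SNF7 family protein, and Zm00004b003707, which encodes a 1-phosphatidylinositol-3-phosphate 5-kinase. They were taken by identifier from the 10 genes for which the study lists cDNA primers, and are 2 of the 41448 genes in each deposited comparison. The names come from that primer list, since the expression tables repeat the identifier in place of a symbol.

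The RNA was from leaves of inbred W22 maize at 45 d. Chromosome arms were varied with B-A translocations, in which part of an A chromosome arm rides on the supernumerary B chromosome. Sperm can lack that part or carry 1 or 2 copies of it, so that embryos have 1 to 3 doses. Each of 9 pairs of arms (6L+9S, 5L+6L, 1L+3L, 4L+6L, 1S+9L, 3L+5L, 1L+5S, 4L+5L and 3L+4L) was brought together by crossing and grown at its own time, with the diploid controls of that pair. All 9 pairs had a double trisomy (3 copies of both arms). A double monosomy (1 copy of both) was present in 6 pairs, the others being combinations of trisomy with monosomy and 3 single plants with a tetrasomy (4 copies of an arm). The sample list assigns 107 aneuploid and 29 control plants to these groups, with 1 to 5 plants per combination and 2 to 4 controls per pair. The controls were normal diploids from the same crosses, except that all plants of the 1L+3L and 6L+9S controls and 1 of the 4 of the 5L+6L controls carried a translocation in the balanced, euploid state.

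SNF7 proteins are the filament-forming subunits of ESCRT-III, the complex that bends and cuts membranes when cargo is sorted into multivesicular endosomes. The 5-kinase, known from yeast as Fab1 and from animals as PIKfyve, adds a phosphate to phosphatidylinositol 3-phosphate on the endosome and, in yeast and Arabidopsis, keeps the vacuole in shape. Proteins of these kinds therefore act on the late endosome, along the route to the vacuole. The primer list names only the family of the SNF7 gene, and where these 2 maize proteins act was not tested. In aneuploids, a gene on the varied arm is said to be in *cis* and any other gene in *trans*. A *cis* gene that follows its copy number has a ratio to the diploid of 1.5 with 3 copies and of 0.5 with 1 copy, and a ratio of 1 means full dosage compensation. Such ratios are of relative expression and give no level per genome. The study estimated the size of the transcriptome with droplet digital PCR of the genes on the primer list. It divided their relative expression per genome by their RNA-seq ratios, and reported a change in most combinations. Both named genes are on that list, so that the estimate is not independent of such ratios.

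The SNF7 gene lies on chromosome 9 from 96540534 to 96544203 in the W22 coordinates of the tables, 17.0 Mb inside the part of 9L that is carried by the translocation. It was in *cis* in the 3 combinations of 1S+9L and in *trans* in the other 30, including those with 9S. The 5-kinase gene lies on chromosome 1 from 218941830 to 218949370, 54.8 Mb inside the varied part of 1L, and was in *cis* in the 6 combinations with 1L and in *trans* in 27. No other gene of the tables overlapped either locus.

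The tables give 1 mean per group in FPKM (fragments per kilobase of transcript, scaled to library size), with no value per plant. The depth of each single library, of which the study gives only an average, and the spread between plants are therefore unknown. No ratio below has a replicate error, and the spread used here is that of the 9 diploid control means, which also differ in the time of growth. The 42 group means summed to 570672 to 654278 FPKM over all genes, and the median ratio of *trans* genes was between 0.825 and 1.17. The photosystem II reaction centre W gene Zm00004b018833, a marker of green leaf, was above 98.2% or more of the genes in all 42 means. In leaf tissue, fewer cells of a type and less RNA per cell cannot be told apart.

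The SNF7 gene was expressed at a narrow range of levels in diploids. Its control means were 54.0 FPKM for 1L+3L, 59.0 for 1L+5S, 59.8 for 1S+9L, 57.4 for 3L+4L, 55.2 for 3L+5L, 68.4 for 4L+5L, 43.9 for 4L+6L, 49.6 for 5L+6L and 61.6 for 6L+9S. The highest was 1.56 times the lowest, and the SD of the log2 control means was 0.19, lower than that of most genes: 23.4% of the 14944 genes at 1 FPKM or more in all 42 means had a smaller SD. The 5-kinase gene was at lower levels with a much wider range. Its control means, in the same order of pairs, were 33.2, 20.3, 16.1, 30.4, 15.7, 23.6, 48.0, 28.9 and 38.5 FPKM. The highest, in 4L+6L, was 3.05 times the lowest, in 3L+5L, the SD was 0.55 on the log2 scale, and 86.6% of the same genes had a smaller SD. The diploid means of different pairs, which also differ in time of growth and in carried translocations, thus lay further apart in fold, at their extremes, for the 5-kinase gene than any aneuploid mean lay from its own controls.

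**Figure D1:**
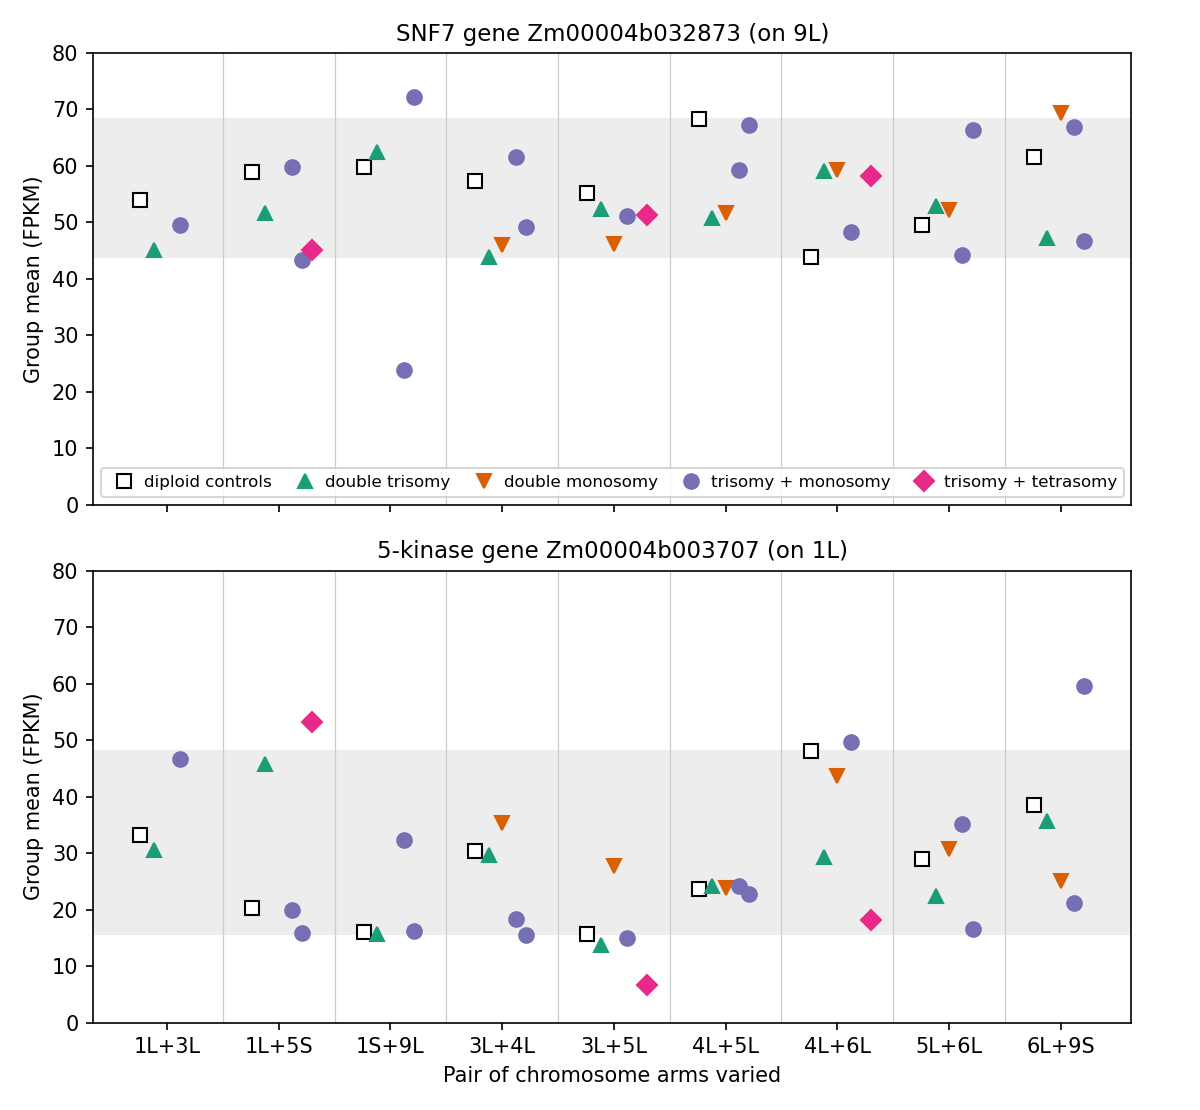
Group means (FPKM, linear axis) of the SNF7 gene (top) and the 5-kinase gene (bottom) for the 9 pairs of arms, 1 point per group, with the range of the 9 diploid controls shaded and no error bars because the tables hold means only. The SNF7 gene stays near its control range of 43.9 to 68.4 FPKM except for a point at 23.9 in 1S+9L, while the 5-kinase gene is between 6.61 and 59.5.

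The SNF7 gene was at its lowest level in the combination with 1 copy of its own arm. With 1 copy of 9L in trisomy 1S+monosomy 9L, it was at 23.9 FPKM against 59.8 in the diploid, a ratio of 0.399. The median ratio of the 950 genes of 9L measured there was 0.414 (quartiles 0.264 and 0.598), and 47.6% of them had a lower ratio than the SNF7 gene, which thus lay in the middle of its arm. The *trans* genes of this combination had a median of 0.825, and relative to it the SNF7 gene was at 0.484, close to the 0.5 of its gene dosage. Both plants of this combination also had 3 copies of 1S and were sampled with the mid-rib, unlike their controls. The part of either in the ratio was not tested.

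With 3 copies of 9L, the SNF7 gene was at 62.4 FPKM in double trisomy 1S+9L and 72.2 in monosomy 1S+trisomy 9L, ratios of 1.04 and 1.21 to the same diploid mean. Both were below the gene-dosage value of 1.5. The medians of 9L were 1.35 and 1.46, and 22.4% and 34.3% of the genes of the arm had a lower ratio than the SNF7 gene. Relative to the *trans* median the values were 1.12 and 1.18. Its level thus differed from the diploid by more in the monosomy than in either trisomy, where the ratios were within the 1.56-fold range of the controls.

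The 20 nearest expressed genes, 10 on either side between -1.98 and 1.46 Mb from the SNF7 gene, gave a local reference. Their median ratio was 0.438 in trisomy 1S+monosomy 9L, 1.29 in double trisomy 1S+9L and 1.36 in monosomy 1S+trisomy 9L. The SNF7 gene was above 8, 3 and 8 of the 20, respectively. The next expressed gene toward higher coordinates, Zm00004b032874, 31.3 kb away, had ratios of 0.473, 0.957 and 1.04 in these combinations. The neighbour on the other side, Zm00004b032871, at 308 kb, had 0.212, 1.35 and 1.64, so that of the adjacent genes one had ratios near 1 in both trisomies and the other had ratios near or above the dosage value.

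The double trisomy with 9L was compared with the 8 double trisomies of other arms in an exact two-sided permutation test. The log2 ratio of the SNF7 gene was 0.06 in 1S+9L and averaged -0.15 in the others, a difference of 0.21 or 1.16-fold (exact p = 0.667, adjusted 0.667 over the 4 tests of both genes). With 1 combination against 8 the smallest possible p is 0.111, so that this design cannot pass 0.05.

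**Figure D2:**
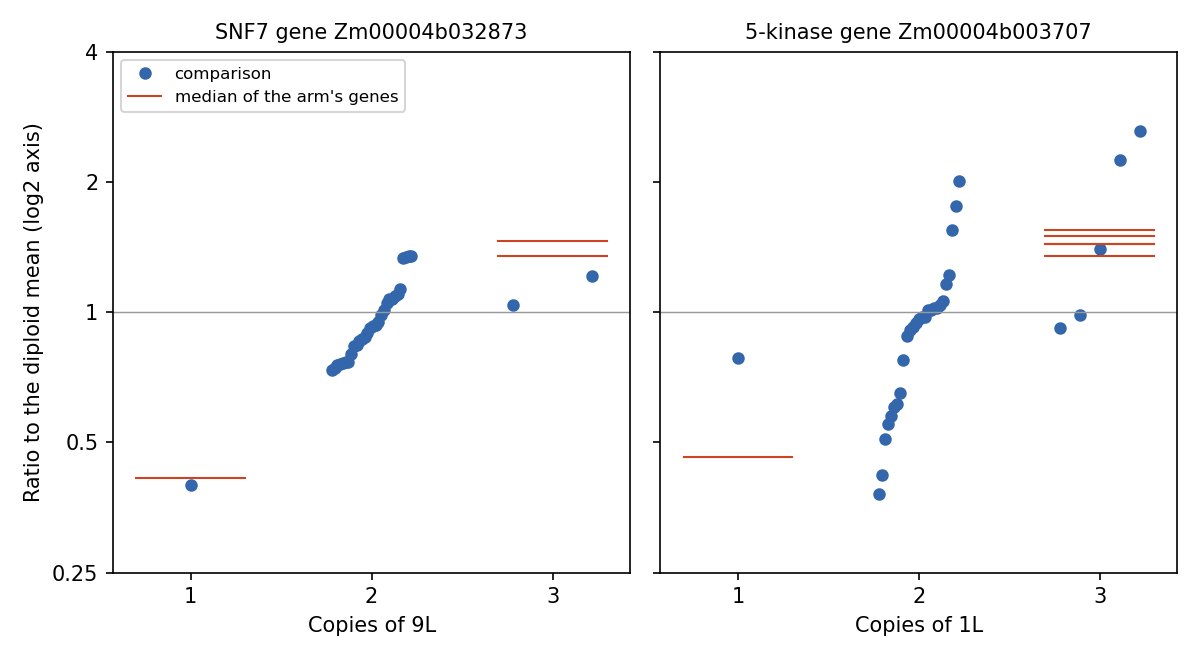
Ratio of each aneuploid mean to its diploid mean (log2 axis) by copies of the gene's own arm, 1 point per comparison, spread sideways in order of ratio, with red lines for the median ratio of the arm's genes in the same comparisons. The single monosomic SNF7 point, 0.399, lies on its arm's median, and the 5 trisomic 5-kinase points run from 0.919 to 2.62.

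In *trans*, the SNF7 gene stayed close to its controls. Across the 30 combinations its ratio was between 0.733 and 1.35 with a median of 0.922, 11 were within 1.1-fold of the diploid, and none was 1.5-fold away, beside 14.6% to 52.7% of all measured genes in single comparisons. Of the 14944 genes, 16.2% likewise had no *trans* ratio 1.5-fold or more from 1, and the median gene had 4. The SD of its log2 ratios was 0.27, against a median of 0.38 over these genes, with 24.7% of them below it. Of these 30 ratios, 19 were below 1, and only 7 were above the *trans* median of their comparison, so that most lay below it.

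The values of the SNF7 gene by pair were as follows. In 1L+3L it was at 45.2 FPKM in the double trisomy and 49.6 in trisomy 1L+monosomy 3L. In 1L+5S it was at 51.7 in the double trisomy, 59.8 in trisomy 1L+monosomy 5S, 43.3 in monosomy 1L+trisomy 5S and 45.2 in trisomy 1L+tetrasomy 5S. The lowest *trans* ratio of all, 0.733, was that of monosomy 1L+trisomy 5S, in which 1 of 4 plants was sampled with the mid-rib. Trisomy 1L+monosomy 5S and trisomy 1L+monosomy 3L, also with 1 of 4 such plants, had ratios of 1.01 and 0.917. Monosomy 3L+trisomy 4L, with 1 of 2, had 0.857, and double monosomy 3L+5L, with 3 of 3, had 0.835. The part of the mid-rib was not tested.

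In 3L+4L the SNF7 gene was at 43.8 FPKM in the double trisomy, 46.0 in the double monosomy, 61.6 in trisomy 3L+monosomy 4L and 49.2 in monosomy 3L+trisomy 4L. In 3L+5L it was at 52.4 in the double trisomy, 46.1 in the double monosomy, 51.2 in trisomy 3L+monosomy 5L and 51.4 in tetrasomy 3L+trisomy 5L. In 4L+5L it was at 50.8 in the double trisomy, 51.6 in the double monosomy, 59.3 in trisomy 4L+monosomy 5L and 67.3 in monosomy 4L+trisomy 5L. All of these means but the double trisomy of 3L+4L were within the range of the 9 controls. The 4L+5L controls, at 68.4, were the highest of the 9, and all 4 ratios to them were below 1.

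In 4L+6L the SNF7 gene was at 59.1 FPKM in the double trisomy, 59.2 in the double monosomy, 48.3 in trisomy 4L+monosomy 6L and 58.2 in trisomy 4L+tetrasomy 6L. The 3 highest had ratios of 1.35, 1.35 and 1.33, to the lowest control mean of the 9. In 5L+6L it was at 52.9 in the double trisomy, 52.2 in the double monosomy, 44.3 in trisomy 5L+monosomy 6L and 66.4 in monosomy 5L+trisomy 6L. The last had a ratio of 1.34, with a control mean of 49.6. In 6L+9S, where 9S is the other arm of its chromosome, it was at 47.3 in the double trisomy, 69.4 in the double monosomy, 66.9 in trisomy 6L+monosomy 9S and 46.7 in monosomy 6L+trisomy 9S. These fell into 2 combinations with 1 copy of 9S at or above 66.9 and 2 with 3 copies at or below 47.3, with ratios of 1.13 and 1.09 against 0.768 and 0.758. The *trans* medians were split in the same way, at 1.17 and 1.11 against 0.918 and 0.946. Relative to them the SNF7 gene was at 0.961 and 0.977 against 0.837 and 0.801, so that much of the split was shared with *trans* genes in general.

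The 5-kinase gene was outside the quartiles of the genes of its arm in 5 of the 6 combinations that varied 1L, above them in 3 and below them in 2. By definition, the quartiles leave as many genes of the arm outside as inside in each comparison. The combinations of a pair also share their diploid mean, so that the 6 are not independent. In the 5 combinations with 3 copies of 1L its ratio was 0.919, 0.983, 1.40, 2.25 and 2.62. The quartiles of the genes of 1L were 1.19 and 1.83 where it was 0.919, 1.16 and 2.02 where it was 0.983, 0.991 and 1.78 where it was 2.25, and 1.01 and 2.16 where it was 2.62. With 1 copy it was 0.782, above the quartiles of 0.340 and 0.627. Trisomy 1L+monosomy 3L, at 1.40, was close to the middle of its arm, with 43.1% of the genes of 1L below it.

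In 1L+5S, the diploid was at 20.3 FPKM, and the 5-kinase gene was at 45.8 in the double trisomy and 53.2 in trisomy 1L+tetrasomy 5S, the second highest of all 42 means and from 1 plant. In these, 86.8% and 82.1% of the genes of 1L had a lower ratio. Trisomy 1L+monosomy 5S, which has the same 3 copies of 1L, was at 20.0, with 17.5% of the genes of the arm below. Monosomy 1L+trisomy 5S was at 15.9, with 85.4% below. The means of the pair with 3 copies of 1L thus ran from the diploid level to more than 2 times that level, in combinations that differ in 5S. In each of the last 2 combinations 1 of 4 plants was sampled with the mid-rib.

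In 1L+3L, the 5-kinase gene was at 30.6 FPKM in the double trisomy and 46.7 in trisomy 1L+monosomy 3L, against 33.2 in the controls, which carried a translocation. Only 8.07% of the genes of 1L had a lower ratio in the double trisomy, where the arm median was 1.44. In the other combination 1 of 4 plants was sampled with the mid-rib, and the ratio of 1.40 was below an arm median of 1.5.

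The surrounding genes gave a local reference for the 5-kinase gene too. The 20 nearest expressed genes lie between -1.61 and 1.44 Mb from it, and double trisomy 1L+5S gave them a median ratio of 1.35, trisomy 1L+monosomy 5S 1.69, trisomy 1L+tetrasomy 5S 1.41, double trisomy 1L+3L 1.43 and trisomy 1L+monosomy 3L 1.45. In monosomy 1L+trisomy 5S it was 0.479. The 5-kinase gene was above 18, 1, 19, 1 and 10 of the 20 in the trisomies, in that order, and above 18 in the monosomy. The neighbour toward lower coordinates, Zm00004b003703, 264 kb away, ran from 0.988 to 1.77 in the trisomies, and Zm00004b003708, 121 kb away on the other side, from 1.53 to 2.01. Both were near the dosage value in the monosomy, at 0.513 and 0.466. A median over 20 genes varies less than a single gene does, and single genes of the 20 ran from 0.548 to 15.1 in the trisomies.

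**Figure D3:**
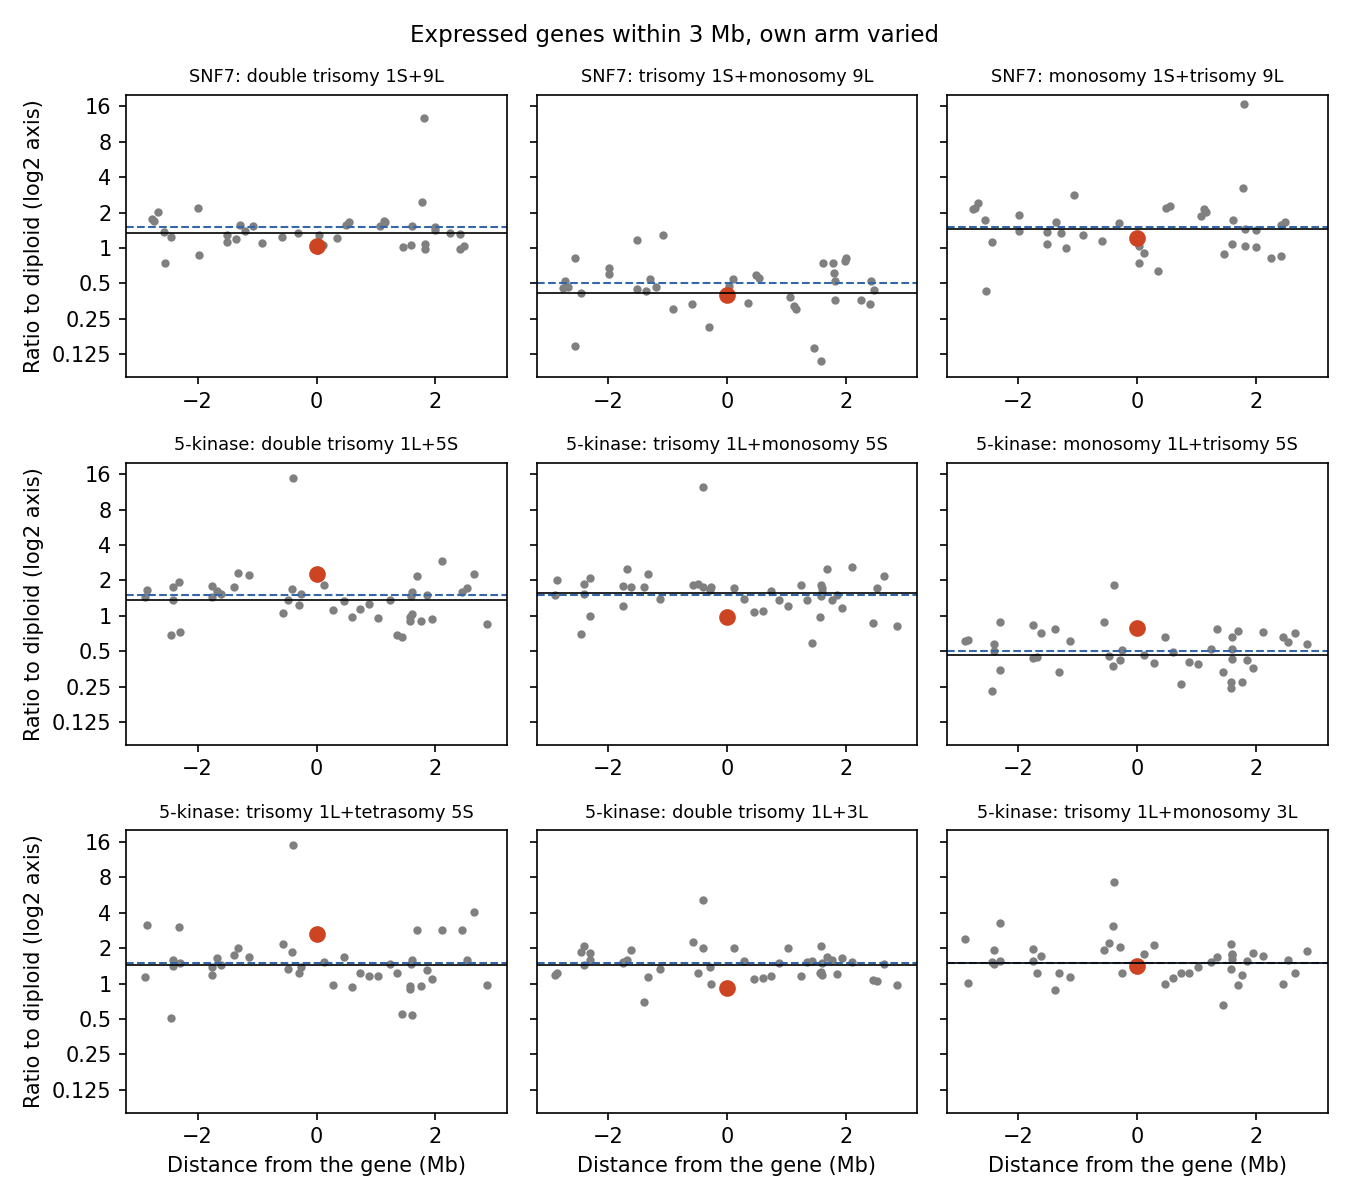
Ratio to the diploid mean (log2 axis) of each gene at 1 FPKM or more in all 42 means within 3 Mb, by distance from the SNF7 gene (top row) or the 5-kinase gene (other rows), in the 9 comparisons in which the own arm was varied. Grey points are single genes, the red point is the named gene, the dashed line is the gene-dosage ratio and the solid line is the median of the arm, so that the 5-kinase gene can be seen above 18 of its 20 nearest neighbours in double trisomy 1L+5S and above 1 of 20 in double trisomy 1L+3L.

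The 2 double trisomies with 1L had a mean log2 ratio of 0.52 for the 5-kinase gene, against -0.20 in the 7 others. The difference of 0.73, or 1.65-fold, did not pass an exact two-sided permutation test (p = 0.139, adjusted 0.5 over the 4 tests, smallest possible p 0.0278). It rested on 1L+5S: without that pair the difference was 0.081 on the log2 scale, and without 1L+3L it was 1.37 (exact p = 0.875 and 0.125, with 0.125 the smallest possible in both).

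In *trans*, the 5-kinase gene varied more than most genes. Over the 27 combinations its ratio ran from 0.379 to 2.01 with a median of 0.962, 12 were within 1.1-fold of the diploid and 11 were 1.5-fold or more away, 3 higher and 8 lower. The SD of its log2 ratios was 0.58, and 77.7% of the 14944 genes had a smaller one. Its diploid control means alone had an SD of 0.55 on the log2 scale, with 86.6% of these genes below. The gene thus varied widely among diploids too, and differences between control means enter the ratios. With the *cis* combinations, 13 of 33 ratios were past 1.5-fold, beside a share of all measured genes between 14.6% and 52.7% per comparison and 10.9 of 33 for a gene with the average share in each. The count for the 5-kinase gene is thus near this background, and that of the SNF7 gene, 1 of 33, is below it. This background includes genes at low levels. Among the 14944 genes at 1 FPKM or more in all means, where the median gene had 4 *trans* ratios past 1.5-fold, 80.6% had fewer than the 11 of the 5-kinase gene, so that on this measure it was above most genes.

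In 3L+4L, the 5-kinase gene was at 29.7 FPKM in the double trisomy and 35.4 in the double monosomy, against 30.4 in the controls. It was lower in both mixed combinations, at 18.3 in trisomy 3L+monosomy 4L and 15.5 in monosomy 3L+trisomy 4L, ratios of 0.602 and 0.508. The share of all genes 1.5-fold or more from the diploid was 20.5% in the double trisomy, 43.0% in the double monosomy, 25.7% in trisomy 3L+monosomy 4L and 46.5% in monosomy 3L+trisomy 4L. In the last, 1 of 2 plants was sampled with the mid-rib and the leaves were taken at another position than in the double monosomy, and the part of either was not tested.

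In 3L+5L, the controls were at 15.7 FPKM, the lowest of the 9. The 5-kinase gene was at 13.8 in the double trisomy, 14.9 in trisomy 3L+monosomy 5L, 27.7 in the double monosomy and 6.61 in tetrasomy 3L+trisomy 5L, the lowest of all 42 means and from 1 plant. The double monosomy had a ratio of 1.76 and the tetrasomy 0.421, so that both directions occurred within a pair. The shares of all genes past 1.5-fold were 18.7%, 31.6%, 36.4% and 37.4% in the same order. All 3 plants of the double monosomy were sampled as whole leaf with the rib, which was not tested.

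In 4L+5L, the 5-kinase gene was level across the pair. It was at 23.6 FPKM in the controls, 24.1 in the double trisomy, 23.9 in the double monosomy, 24.1 in trisomy 4L+monosomy 5L and 22.7 in monosomy 4L+trisomy 5L. The ratios were between 0.962 and 1.02, while 22.5%, 39.0%, 22.4% and 27.0% of all genes were past 1.5-fold in these combinations.

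In 4L+6L, the controls were the highest of the 9 at 48.0 FPKM. The 5-kinase gene was at 29.4 in the double trisomy, 43.6 in the double monosomy, 49.7 in trisomy 4L+monosomy 6L and 18.2 in trisomy 4L+tetrasomy 6L. The double trisomy had a ratio of 0.613 and the tetrasomy plant 0.379, the lowest of the 33, with 3.73% of all genes below it in that comparison. The shares of all genes past 1.5-fold were 26.9%, 37.3%, 31.2% and 39.5%. Both combinations with 3 or more copies of 6L were thus low and both with 1 copy were within 1.1-fold of the controls.

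In 5L+6L, the 5-kinase gene was at 22.4 FPKM in the double trisomy, 30.7 in the double monosomy, 35.1 in trisomy 5L+monosomy 6L and 16.6 in monosomy 5L+trisomy 6L, against 28.9 in the controls. The combinations with 3 copies of 6L had ratios of 0.775 and 0.575 and those with 1 copy 1.06 and 1.22. The shares of all genes past 1.5-fold were 24.1%, 35.6%, 34.1% and 33.4%.

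In 6L+9S, where the controls were at 38.5 FPKM, this order did not hold. The 5-kinase gene was at 35.6 in the double trisomy, 25.1 in the double monosomy, 21.2 in trisomy 6L+monosomy 9S and 59.5 in monosomy 6L+trisomy 9S, the highest of all 42 means. The ratios of the double monosomy, trisomy 6L+monosomy 9S and monosomy 6L+trisomy 9S were 0.651, 0.551 and 1.55. The shares of all genes past 1.5-fold were 14.6%, 32.5%, 34.2% and 31.5%. Here the 5-kinase gene was low with 1 copy of 9S, where the SNF7 gene was at its highest of the pair, and the controls were 2 plants that carried a translocation.

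In 1S+9L, the 5-kinase gene was at 15.7 FPKM in the double trisomy and 16.2 in monosomy 1S+trisomy 9L, against 16.1 in the controls. In trisomy 1S+monosomy 9L it was at 32.3, a ratio of 2.01, its highest in *trans*, and 2.43 relative to the *trans* median. The shares of all genes past 1.5-fold were 19.4%, 36.9% and 52.7%, the last the highest of the 33 comparisons. The combination in which the SNF7 gene was lowest thus had the 5-kinase gene at its highest *trans* ratio, in the same 2 mid-rib plants.

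For the remaining combinations, those with 1L, the shares of all genes past 1.5-fold were 27.7% in double trisomy 1L+3L and 40.4% in trisomy 1L+monosomy 3L. They were 36.7% for double trisomy 1L+5S, 39.5% for trisomy 1L+monosomy 5S, 43.2% in monosomy 1L+trisomy 5S and 47.7% in trisomy 1L+tetrasomy 5S. The 5-kinase ratios of 2.25 and 2.62 in this pair were above those of 94.8% and 89.2% of all genes measured.

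The double monosomies were set against the double trisomies of the same pair in the 6 pairs that have both. They share their controls, which drop out of this comparison, and none of the 6 varies 1L or 9L. The SNF7 gene was at similar means in 5 of them: the double monosomy over the double trisomy was 1.05 for 3L+4L, 0.879 for 3L+5L, 1.01 for 4L+5L, 1.00 for 4L+6L and 0.987 for 5L+6L. For 6L+9S it was 1.47. The mean log2 difference was 0.07 ± 0.25 (SD over 6 pairs), positive in 4 of 6 pairs, with p = 0.594 in an exact two-sided sign-flip permutation test (adjusted 0.667, smallest possible 0.0312). Without 6L+9S the mean was -0.023 and the sign turned.

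For the 5-kinase gene, 4 of the 6 pairs had the higher mean in the double monosomy. The pair 3L+5L had a double monosomy over double trisomy of 2.01, 4L+6L of 1.48, 5L+6L of 1.37, 3L+4L of 1.19, 4L+5L of 0.989 and 6L+9S of 0.704. The mean log2 difference was 0.29 ± 0.52 (SD over 6 pairs), 1.23-fold, and did not pass the same exact test (p = 0.250, adjusted 0.5, smallest possible 0.0312). It was 0.151 without 3L+5L, 0.454 without 6L+9S and 0.132 with ratios divided by the *trans* median. The largest difference, in 3L+5L, was the pair in which the double monosomy was sampled with the rib.

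**Figure D4:**
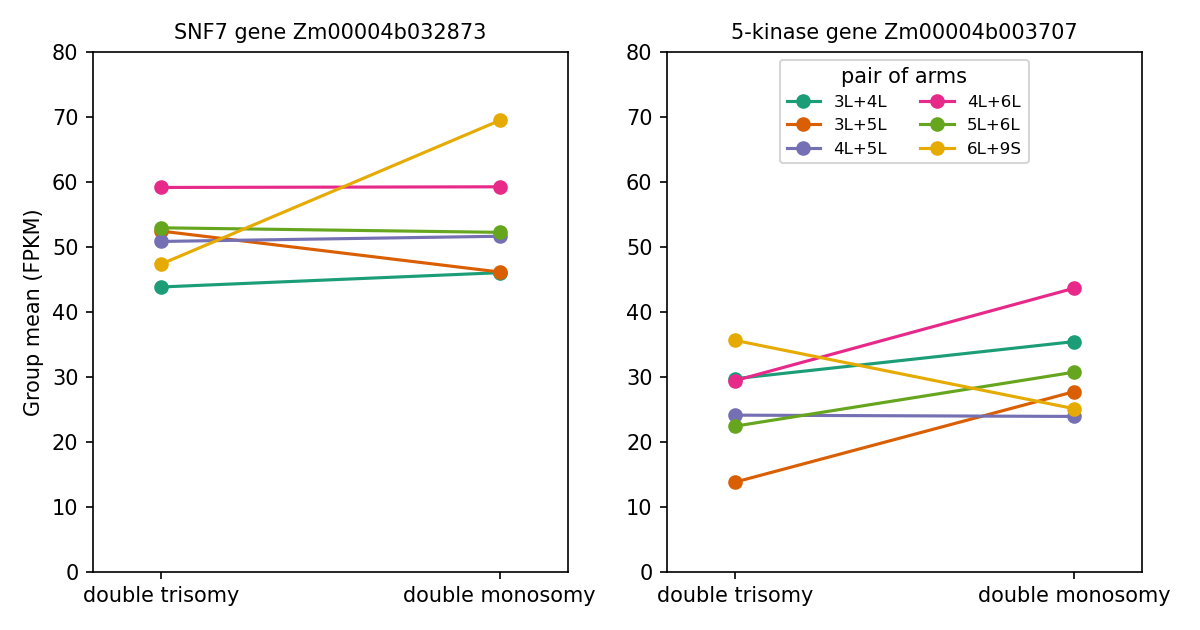
Group means (FPKM, linear axis) of the SNF7 gene (left) and the 5-kinase gene (right) in the double trisomy and the double monosomy of the 6 pairs that have both, 1 line per pair. The SNF7 lines are near level except in 6L+9S, which goes from 47.3 to 69.4, and the 5-kinase lines go up in 4 pairs and down from 35.6 to 25.1 in 6L+9S.

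In the order of the levels, neighbouring groups lay close together, which says nothing of groups further apart in the order. For the SNF7 gene, 1 of the 41 steps between neighbours in the order of the 42 means exceeded the SD of the log2 control means of 0.19, that between trisomy 1S+monosomy 9L and the next group, at 0.86. For the 5-kinase gene it was again the last step, of 1.06 against a control SD of 0.55, below double trisomy 3L+5L at 13.8 FPKM. Of the 33 aneuploid means, 3 were below and 2 above all control means for the SNF7 gene, and 5 below and 3 above for the 5-kinase gene.

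The 8 other genes of the primer list gave a comparison on the same scale. The SD of their log2 ratios over the combinations with their own arm at 2 copies was between 0.18 and 0.72, with a median of 0.36. Of the 8 genes, 3 varied less than the SNF7 gene and 2 varied more than the 5-kinase gene. The annexin gene Zm00004b008969, whose product binds calcium and membrane phospholipids and which is nearest in function to the named genes, had an SD of 0.25, control means of 24.2 to 33.2 FPKM and no ratio past 1.5-fold in 33 comparisons. It thus resembled the SNF7 gene rather than the 5-kinase gene in this respect. The same held for the WD repeat gene Zm00004b004532 and the Mediator gene Zm00004b034591, with SDs of 0.20 and 0.18 and no *trans* ratio past 1.5-fold. The likeness was therefore not particular to the annexin gene.

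**Figure D5:**
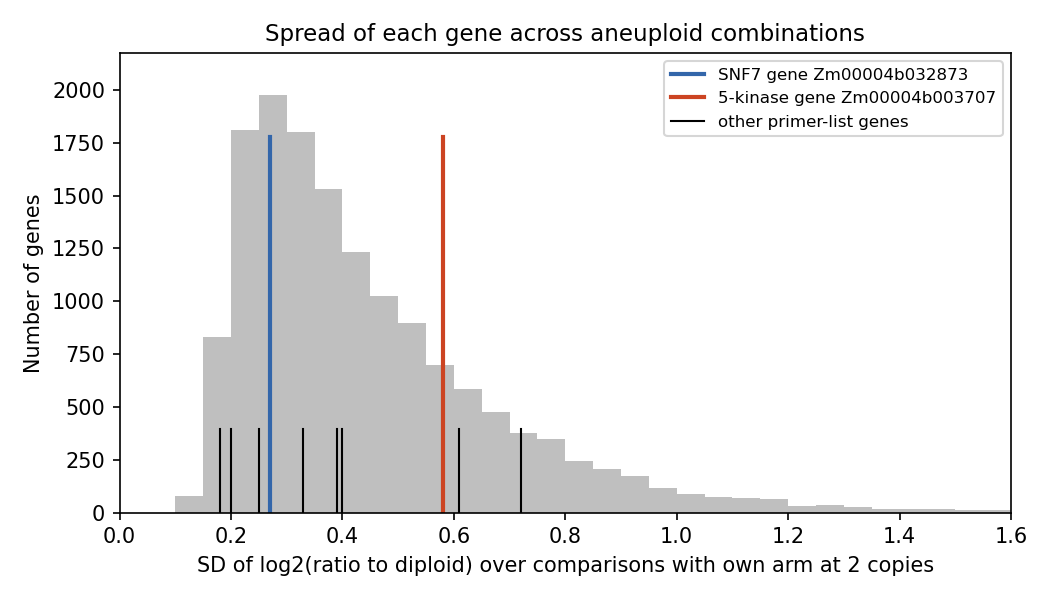
Histogram of the SD of the log2 ratio to diploid over the combinations in which a gene's own arm was at 2 copies, for 14944 genes at 1 FPKM or more in all 42 means (the axis ends at 1.6). The SNF7 gene at 0.27 is left of the median of 0.38, the 5-kinase gene at 0.58 is right of it, and the short black lines are the 8 other genes of the primer list.

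The levels of the 2 genes did not run in parallel. Pearson's r of their log2 FPKM over the 42 means was -0.32, and with the annexin gene it was 0.46 for the SNF7 gene and -0.33 for the 5-kinase gene. These are descriptions, as the 42 means share controls, growth times and scaling. The genes most like the SNF7 gene were Zm00004b032914 (r = 0.88, 2.42 Mb away) and Zm00004b033990 (r = 0.84, 49.1 Mb away), both also on 9L. Without the 3 means in which 9L was varied, the 39 others gave 0.76 and 0.67. The genes most like the 5-kinase gene were Zm00004b005749 (r = 0.85) and Zm00004b004730 (r = 0.83), 87.9 and 47.5 Mb away, both on 1L, and over the 36 means with 1L at 2 copies both had r = 0.84. All these genes were chosen for their r over the 42 means, of which the smaller sets are part. The files give no name for these 4 genes.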

How the data were processed

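RNA-seq of rRNA-depleted, stranded leaf libraries was trimmed with fastp, freed of organelle reads, aligned with STAR to the W22 genome with the B chromosome, and summarised with Cuffdiff. Versions and the scaling of the libraries are not given in the sources used here. The authors deposited group means in FPKM, with columns of their own fold changes, test statistics, p-values and q-values, which were not used. Depth per sample is unknown.

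The 2 genes and the lists were chosen with earlier results of these data known. Of 137 samples, 136 were assigned to a group. The other had conflicting labels, and whether it entered a mean is not known. Ratios were aneuploid over diploid mean without a pseudocount. Arm and *trans* medians used genes on chromosomes 1 to 10 whose 2 means summed to at least 1 FPKM. Arm boundaries were set where the numbers of *cis* genes equalled those the study gives. Positions are as the tables give them. Calls were ratios of at least 1.5 or at most 1/1.5, since means allow no test across genes. The 4 exact permutation tests used log2 ratios, with combinations or pairs of arms as units and Benjamini-Hochberg adjustment. Named genes were the 2 members, the expressed gene next to each on either side, the 2 most correlated genes of each, and the primer list. None of the identifiers was matched by the reference gene table (0 matches), so that other ESCRT and phosphoinositide genes could not be listed and no sequence is printed. Functions were checked on simulated data. Python 3 with numpy, pandas and matplotlib was used.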

Additional observations from a re-analysis of the deposited data

Results flagged for a closer look

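Among 6 sets of group values examined for an extreme member (control means, double trisomies and double monosomies of each gene), 1 had one. The ratio of the 5-kinase gene Zm00004b003707 in double trisomy 1L+5S, 2.25, was set apart from the other 8 double trisomies. The gap was 0.751 of the whole range of the double trisomies, this one included. By its nominal rate, which was not estimated from these data, the rule marks about 1 in 20 such sets by chance. The mean is from 4 plants, and the single plant of trisomy 1L+tetrasomy 5S had a similar ratio to the same controls, 2.62. Trisomy 1L+monosomy 5S, also with 3 copies of 1L and from 4 plants, had a ratio of 0.983 to these controls. The set holds 2 double trisomies with the gene's own arm at 3 copies and 7 with it at 2, so that its members differ in gene dosage.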

How the results depend on the processing

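No paired analysis was possible because the tables hold no value per plant, so that plants could not be matched by their replicate numbers (the pairing by arms in the double monosomy tests is of group means). Alternatives that leave out single plants could not be run for the same reason. Of 140 values under alternatives, 133 kept their direction and their side of the threshold or moved by less than the spread used. Many of the 140 were *trans* or arm medians, or used pseudocounts that are small beside the levels of the named genes. The count is therefore no measure of how stable the results on these genes are. It also holds as kept the 5-kinase difference with 1L, which fell from 0.73 to 0.08 without 1L+5S. The log2 difference of the SNF7 gene between double monosomies and double trisomies, 0.07, turned to -0.089 with ratios divided by the *trans* median and to -0.023 without 6L+9S, alone or together with 1L+3L. None of these passed an exact test (p between 0.188 and 0.875 over its 10 alternatives). Those that left out a pair could not have passed, as their smallest possible p was 0.0625. The other 3 differences kept their direction under every alternative run. They were 0.08 to 1.39 for the 5-kinase gene in double trisomies with 1L and 0.16 to 0.29 for the SNF7 gene with 9L. For the 5-kinase gene between double monosomies and double trisomies they were 0.13 to 0.45. None passed an exact test, but many of these tests could not have passed whatever the values. The smallest possible p was 0.111 or more in every alternative for the SNF7 gene with 9L. For the 5-kinase gene with 1L it was 0.125 or more where 1L+3L or 1L+5S was left out. For the double monosomies it was 0.0625 where a pair was left out. At a fold of 2, the 5-kinase gene was past the fold in 5 of 33 comparisons instead of 13. Without trisomy 1S+monosomy 9L the SNF7 gene was past 1.5-fold in 0 comparisons, and likewise without the 6 combinations that hold a mid-rib plant, an alternative chosen after seeing the data. The latter left 10 for the 5-kinase gene. The ratio of the SNF7 gene in trisomy 1S+monosomy 9L moved from 0.399 to 0.484 with division by the *trans* median. Means of 1 to 5 plants with no spread limit all statements on single combinations.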
